A study of Macaca mulatta with 6 samples.

Results

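Of 1357052 autosomal CCGG sites listed in haploid embryonic stem cells (ESC) or sperm of the rhesus macaque, Macaca mulatta, 1982 had 6 or more other listed sites within 500 bp on either side. These are called dense sites here, and they were chosen on position alone, over chromosomes 1 to 20 and over the union of both cell types' tables. Only listed sites were counted as neighbours, and the authors' filters for listing a site are not known. Shares of calls at sites listed in a single table and in both are given below. The effect of the filters on the calls was not tested. The part was proposed as resembling CpG islands. Neither CpG content nor genes could be checked at these positions, so the sites are described only by how closely listed CCGG sites lie together.

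The study's title names the haploid ESC as parthenogenetic, meaning that their genome comes from an egg, and its subject as imprinted regions, where the maternal and the paternal copy differ in DNA methylation. Neither cell type carries a treatment or an engineered allele in the labels, which give no ages or animals and do not say how many animals or lines were used. Each cell type was profiled by HMST-Seq with 3 libraries of genomic DNA, whose digests the labels call HpaII, BGT_MspI and MspI. With 1 library per digest the 6 libraries were not replicated, so the cell types are compared without replicate error and without a test.

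CpG islands are stretches in which CpG dinucleotides, scarce in most of a mammalian genome, stay frequent. Most of them are free of methylation in the germ line and in early embryonic cells, and imprinted control regions are known exceptions that keep methylation from a single parent. The enzymes read the CpG inside CCGG: HpaII is blocked by methylation there, MspI is not, and beta-glucosyltransferase adds a sugar to 5-hydroxymethylcytosine that MspI cannot pass.

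For each site the authors' deposited table of a cell type was read as giving 2 comparisons between digests, each with a raw and an adjusted p-value. Its columns carry no names, so the comparisons are called the first pair and the second pair, and that a pair joins the same digests in both cell types is an assumption. Since only 3 digests exist per cell type, the pairs share a library. A called site is one whose adjusted p was below 0.05. A call says that the signals of some pair of digests differed in these libraries. It does not say which digest was higher or how methylated the site was. The second pair's adjusted column goes above 1, which a p-value cannot, so it is named adjusted p from its place beside the p-value and is best taken as a score. How many reads stand behind a call is unknown.

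Dense sites were rare and came in short groups. They made up 1.46 of every 1000 autosomal sites. Of the 1982, 1598 had exactly 6 other sites within 500 bp, 309 had 7, 62 had 8, 12 had 9 and 1 had 10. The median distance from a dense site to the nearest listed site was 69 bp (quartiles 41 and 107 bp), against 454 bp for the other autosomal sites. Chaining dense sites at most 500 bp apart gave 774 clusters. Of these, 309 held 1 dense site, 270 held 2 or 3, 179 held 4 to 7 and 16 held 8 to 10. The 465 clusters of 2 or more spanned a median of 263 bp, and the longest spanned 1014 bp.

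The dense sites were unevenly placed. Chromosome 19 held 204 of them, or 3.88 per 1000 of its sites, and chromosome 20 held 187, or 3.33 per 1000. Chromosome 16 followed with 2.39 and chromosome 10 with 2.15 per 1000. At the other end, chromosome 5 had 16 dense sites (0.248 per 1000), chromosome 2 had 27 (0.350 per 1000) and chromosome 4 had 29 (0.394 per 1000). Of all dense sites 983, or 49.6%, lay within 5 Mb of the first or last listed site of their chromosome, against 14.8% of the other sites. Position near a chromosome end thus moved with density, and its part in the results below was not tested.

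First-pair calls were more frequent at dense sites than elsewhere in both cell types. For haploid ESC the authors' deposited table called 1604 of 1912 dense sites, or 83.9% (95% Wilson interval 82.2% to 85.5%). Over all its autosomal sites the share called was 66.8%. The sperm table called 1588 of 1848 dense sites, or 85.9% (84.3% to 87.4%), against 69.7% over all its autosomal sites. The excess over the other autosomal sites was 17.1 percentage points in haploid ESC (15.4 to 18.7) and 16.3 points in sperm (14.6 to 17.8). Against sites with 4 or 5 neighbours alone it was 7.14 points (5.35 to 8.79) and 5.43 points (3.71 to 7.02), and with a minimum of 4 neighbours in place of 6 it was 10.6 and 11.4 points. All intervals cover counting error only, and they are too narrow because sites of a cluster depend on each other. With the first listed site of each cluster alone, the excess was 16.3 points over 764 sites in haploid ESC and 14.5 points over 750 sites in sperm.

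The difference widened at a stricter threshold. At an adjusted p below 0.001, 68.8% of dense sites were called in haploid ESC, where 41.4% of all autosomal sites were. In sperm 73.4% of dense sites passed that threshold, against 48.3% of all. The median adjusted p of dense sites was 6.24e-08 in the authors' deposited table for haploid ESC, and that of the other sites was 0.00618. For sperm the authors' deposited table gave medians of 8.71e-11 at dense sites and 0.00141 at the others. The lowest adjusted p of a dense site was 4.3e-157 in haploid ESC and 1.08e-270 in sperm, while the authors' deposited tables list other sites at 0. The other sites numbered 1316063 and 1253056, far more than the dense sites, so the lowest values do not compare the classes.

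**Figure D1:**
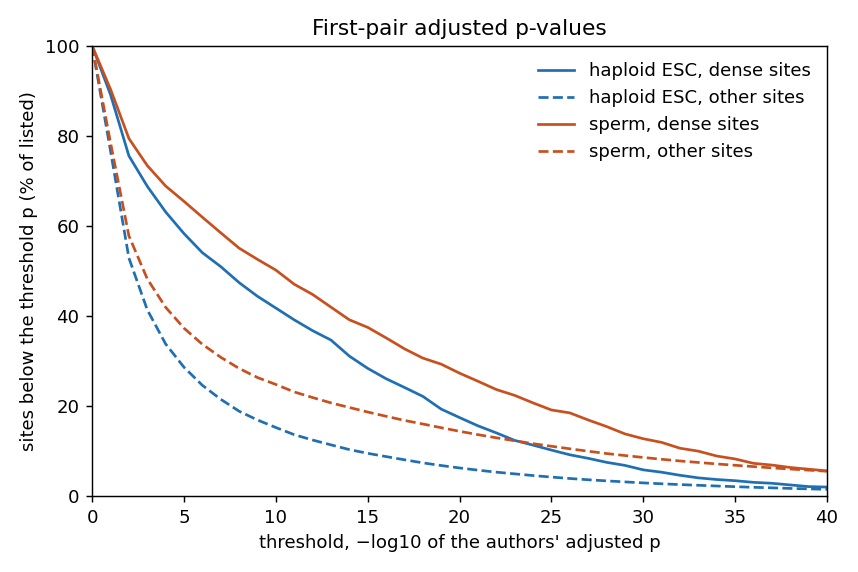
Share of listed autosomal sites (vertical axis, percent) whose first-pair adjusted p lies below the threshold on the horizontal axis (−log10), for dense sites (solid lines) and other sites (dashed lines) of each table. In both tables the dense sites lie above the others at moderate thresholds, and at a threshold of 0.001 they stand at 68.8% in haploid ESC and 73.4% in sperm.

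The share of first-pair calls rose with the number of sites nearby, on both sides of the boundary of 6. Sites with no other site within 500 bp were called at 65.4% in haploid ESC and 68.6% in sperm. With 1 neighbour the shares were 65.9% and 68.9%, and with 3 they were 73.3% and 75.4%. Just outside the boundary, sites with 5 neighbours were called at 79.2% in haploid ESC (78.2% to 80.2%) and 83.2% in sperm (82.3% to 84.2%). Just inside it, those with 6 reached 83.5% (81.5% to 85.2%) and 85.3% (83.4% to 87.0%). Sites with 7 neighbours stood at 85.4% and 88.3%, and the 75 with 8 or more at 87.7% and 89.9%. The last 3 classes do not differ beyond their counting intervals in either table.

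**Figure D2:**
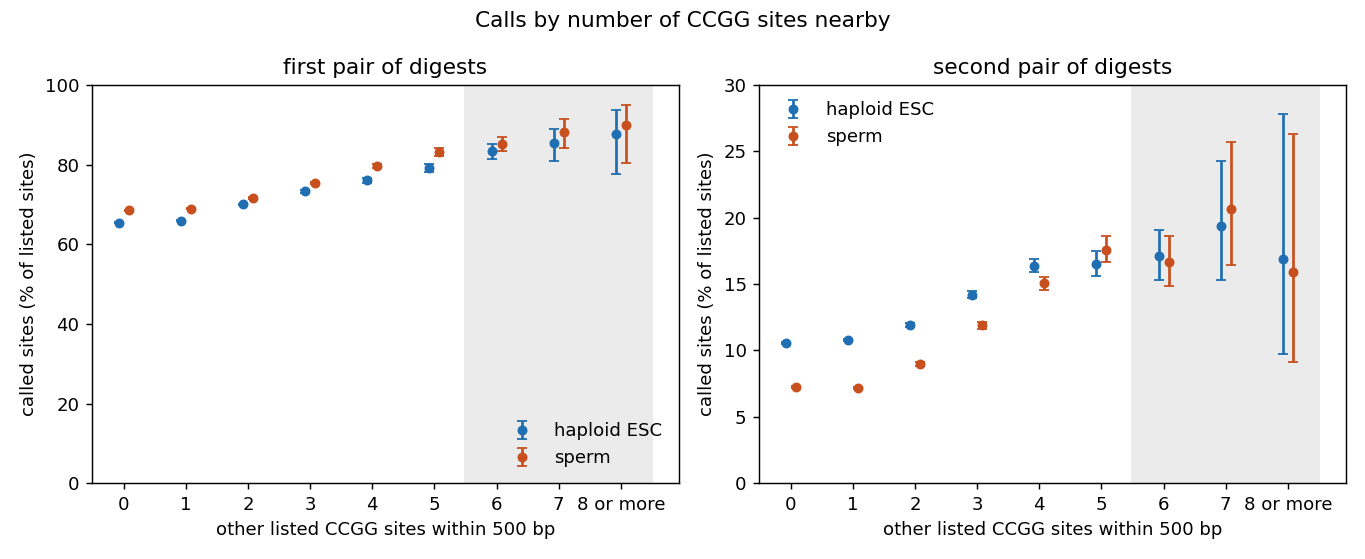
Percent of listed autosomal sites called (vertical axes) by the number of other listed CCGG sites within 500 bp (horizontal axes), for the first pair (left) and the second pair (right) in haploid ESC and sperm. Bars are 95% Wilson intervals and the shaded classes are the dense sites; first-pair shares rise from 65.4% to 87.7% in haploid ESC and from 68.6% to 89.9% in sperm.

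The excess recurred on most chromosomes. In sperm dense sites had the higher first-pair share on 20 of 20 autosomes, and in haploid ESC on 19. Chromosome 18 was the exception in haploid ESC, where 10 of 17 dense sites were called (58.8%) against 65.7% of its other sites. In sperm the same chromosome had 14 of 17 called. Chromosome 11 was the highest in haploid ESC, with 53 of 55 dense sites called (96.4%), and had 52 of 54 (96.3%) in sperm. Chromosome 7 differed more between the tables than chromosome 11, with 77 of 80 (96.3%) in haploid ESC and 63 of 73 (86.3%) in sperm. Chromosome 17 differed further and in the other direction, with 30 of 41 (73.2%) in haploid ESC and 36 of 41 (87.8%) in sperm. On chromosome 19, the richest in dense sites, the shares were 82.2% and 89.0%. Chromosome 8 was the lowest in sperm, with 48 of 61 called (78.7%).

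**Figure D3:**
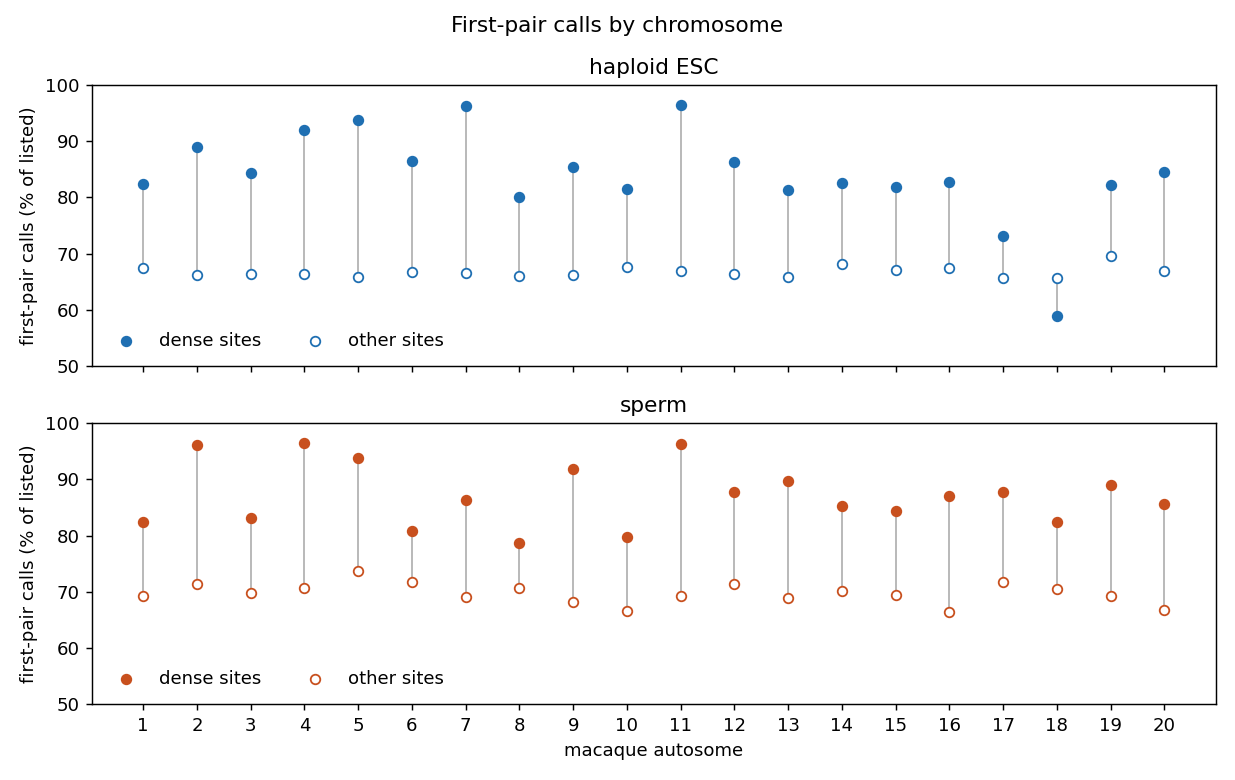
First-pair calls as a percent of listed sites (vertical axes, starting at 50%) on each macaque autosome, for dense sites (filled points) and other sites (open points) in haploid ESC (top) and sperm (bottom). Filled points lie above open ones everywhere except on chromosome 18 in haploid ESC, where 58.8% of dense sites were called.

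Around the dense sites the first-pair share fell off over about the first kilobase or more. Sites 1 to 500 bp from a dense site were called at 78.9% in haploid ESC and 81.7% in sperm. At 501 to 1000 bp the shares were 74.8% and 74.9%, and at 1001 to 2000 bp 70.9% and 71.9%. In haploid ESC the share at 5001 to 20000 bp was 70.6% (70.1% to 71.2%), and at 20001 to 100000 bp it was 69.2% (68.9% to 69.5%). Both were above the 66.5% of sites more than 100000 bp away (66.4% to 66.5%). In sperm the share at 5001 to 20000 bp was 69.5% (69.0% to 70.1%), and at 20001 to 100000 bp it was 68.2% (67.9% to 68.5%). Of these, only the latter interval lay below that of sperm sites more than 100000 bp away, at 69.7% (69.7% to 69.8%). The gradient with distance also holds fewer close neighbours at each step, and the 2 were not separated.

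**Figure D4:**
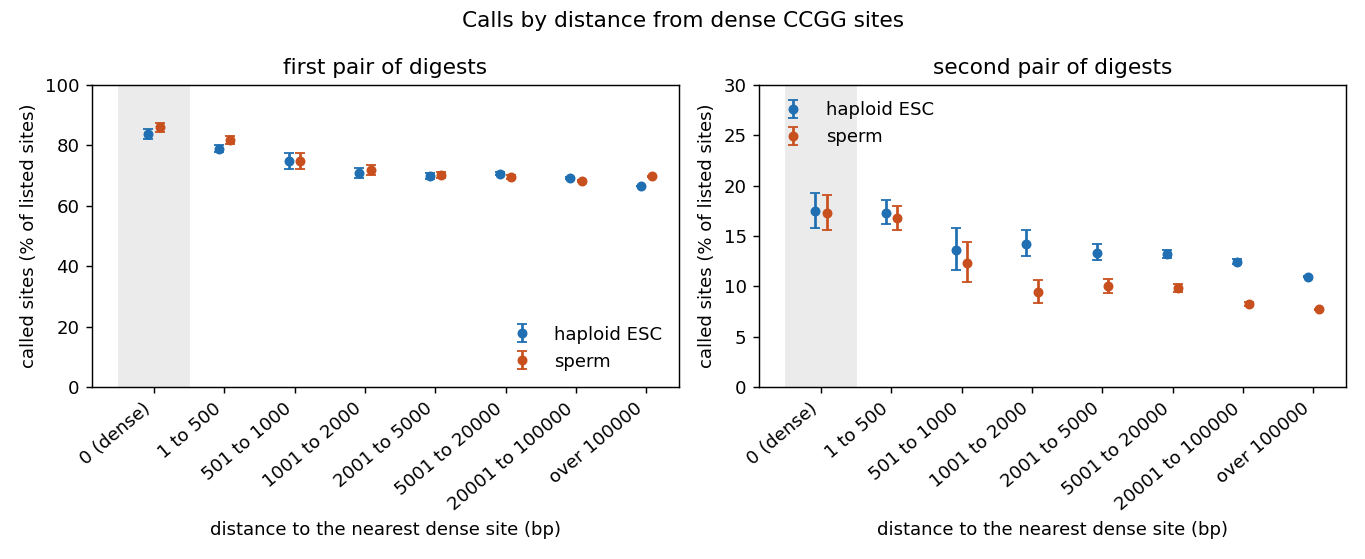
Percent of listed autosomal sites called (vertical axes) by distance in bp to the nearest dense site (horizontal axes), for the first pair (left) and second pair (right) in haploid ESC and sperm. Bars are 95% Wilson intervals and the shaded class is the dense sites themselves; sperm first-pair calls fall from 85.9% at dense sites to 68.2% at 20001 to 100000 bp.

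Second-pair calls were also more frequent at dense sites than over all sites, but not beyond counting error when set against sites nearly as dense. The haploid ESC table called 334 of 1912 dense sites, or 17.5% (15.8% to 19.2%), against 11.1% over all autosomal sites. In sperm 319 of 1848 were called, or 17.3% (15.6% to 19.0%), against 7.86% over all. The excess over other sites was 6.34 points (4.70 to 8.11) in haploid ESC and 9.42 points (7.76 to 11.2) in sperm. With the first listed site of each cluster alone it was 5.10 and 6.15 points, a fall of more than 1.5 times in sperm. Against sites with 4 or 5 neighbours alone it was 1.05 points in haploid ESC (-0.641 to 2.87) and 1.65 points in sperm (-0.0650 to 3.49), and both intervals include 0. Sites 1 to 500 bp from a dense site were called at 17.3% and 16.8%. Elsewhere the tables differed: sites with no neighbour were called at 10.6% in haploid ESC and 7.23% in sperm. The shares met at 5 neighbours, with 16.5% (15.6% to 17.5%) in haploid ESC and 17.6% (16.7% to 18.6%) in sperm. Depth was not known for either table. Contrasts of call shares between the cell types, here and below, are therefore given as values only.

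Strict second-pair calls were few. At an adjusted p below 0.001 haploid ESC had 55 dense sites called (2.88%), where 1.33% of all autosomal sites were, and sperm had 93 (5.03%), against 1.57% of all. On single chromosomes the second pair rested on small counts. Dense sites had the higher share on 19 autosomes in haploid ESC and on 18 in sperm. Chromosome 5 was the exception in both, with 1 of 16 dense sites called in haploid ESC and 0 of 16 in sperm, which allows a share of up to 18.8% when a count of 0 is taken to allow 3 sites. Chromosome 18 was the other exception in sperm, with 1 of 17. The highest shares were 25.3% (23 of 91) on chromosome 13 in haploid ESC and 30.8% (8 of 26) on chromosome 2 in sperm.

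The 1778 dense sites listed in both tables allow the calls of the cell types to be set side by side. For the first pair 1342 of them (75.5%) were called in both, compared with 51.1% of all shared autosomal sites. Haploid ESC alone called another 162 (9.11%) and sperm alone another 189 (10.6%), where the shares over all sites were 16.5% and 18.9%. Only 85 (4.78%) were called in neither. Of dense sites called in haploid ESC, 89.2% were called in sperm too (87.6% to 90.7%), and of those not called in haploid ESC, 69.0% were (63.3% to 74.2%). At the other shared autosomal sites these shares were 75.6% and 58.5%. The phi coefficient of the calls, a description across sites, was 0.21 at dense sites and 0.17 at the others.

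For the second pair a call in one cell type went little with a call in the other at dense sites. There were 60 dense sites called in both (3.37%, with 1.6% over all shared sites). Haploid ESC alone called 249 (14.0%, with 9.93% over all), and sperm alone called 256 (14.4%, with 6.38% over all). Sperm called 19.4% of the dense sites that haploid ESC called (15.4% to 24.2%) and 17.4% of those that haploid ESC did not call (15.6% to 19.5%), so the intervals overlap. At the other shared autosomal sites the same shares were 13.9% (13.7% to 14.1%) and 7.20% (7.15% to 7.25%). As a description across sites, the phi coefficient of yes-or-no calls was 0.02 over the 1778 dense sites and 0.08 over the 1214049 others.

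Most dense sites were listed in both tables. Of the dense sites 89.7% were in both tables, against 89.6% of other sites. Among dense sites of haploid ESC 134 of 1912 (7.01%, 5.95% to 8.24%) had no entry in sperm, and the share elsewhere was 7.75%. Among dense sites of sperm 70 of 1848 (3.79%, 3.01% to 4.76%) had no entry in haploid ESC, and the share elsewhere was 3.11%. The differences of dense minus other sites had counting intervals that include 0, of -1.80 to 0.490 points and -0.105 to 1.65 points. With neighbours counted among shared sites alone, the difference in haploid ESC was -2.52 points (-3.64 to -1.11). In sperm it was then 0.112 points (-0.755 to 1.28). That count favours stretches listed in both tables, so neither value is independent of the choice of sites. With 4 or more neighbours the haploid ESC difference was -1.12 points (-1.40 to -0.827). By number of neighbours, the share of haploid ESC sites without a sperm entry was 8.08% at 0, 6.41% at 3 and 7.02% at 6. The share of sperm sites without an entry in haploid ESC was 2.92% at 0 neighbours, 3.02% at 6 and 14.5% at 8 or more (8.07% to 24.7%). The last class holds 69 sperm sites, and 4 of its 10 sites without an entry lay in a single cluster on chromosome 4. In haploid ESC first-pair calls were made at 74.6% of the dense sites listed there alone (66.6% to 81.2%) and at 84.6% of those in both tables (82.8% to 86.2%). In sperm the values were 81.4% (70.8% to 88.8%) and 86.1% (84.4% to 87.6%), whose intervals overlap. The other autosomal sites showed the same order, with 57.1% and 67.6% in haploid ESC and 58.5% and 70.0% in sperm.

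Sites without an entry were spread over many clusters. Of the 465 clusters of 2 or more dense sites, 328 had every dense site in both tables. In haploid ESC 52 clusters lacked at least 1 dense site, 6 lacked 2 or more and 3 lacked 3 or more. In sperm 96 lacked at least 1, 12 lacked 2 or more and 3 lacked 3 or more. The 3 clusters with most sites lacking in haploid ESC held 10 of the 70 such sites. They lay on chromosome 4 (described below), on chromosome 15 from 73924641 to 73925380, with 5 of 8 dense sites listed, and on chromosome 16 from 639836 to 640436, with 5 of 8. In both of the latter, all 5 listed sites were called for the first pair in haploid ESC and 7 of 8 in sperm. The chromosome 16 cluster had adjusted p-values of 1.3e-08, 1.4e-14, 6.3e-25, 9.7e-18 and 0.032 in the authors' deposited table for haploid ESC. The authors' deposited table for sperm gave its 8 sites a median of 2.6e-26, and its uncalled site 0.14. The chromosome 15 cluster had 0 second-pair calls in haploid ESC and 4 in sperm, where the authors' deposited table gave these sites 1.2e-06 to 0.028. The reverse, 3 dense sites lacking in sperm, was seen on chromosome 1 from 12891577 to 12892052, on chromosome 16 from 168424 to 168865 and on chromosome 16 from 79069857 to 79070489. These clusters were chosen after their values were seen.

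Whole clusters were compared where at least 4 dense sites were listed in both tables. There were 170 such clusters, with 862 shared dense sites. In 74 of them each shared site was called for the first pair in both tables, in 38 this held for sperm only, in 19 for haploid ESC only and in 39 for neither. No cluster was without a call in either table. Under 50% of the shared sites were called in 7 clusters in haploid ESC and in 3 in sperm. At least 1 second-pair call was present in 99 clusters in haploid ESC and 109 in sperm, while 6 and 17 had 3 or more. Over all dense sites listed in both tables, first-pair shares were 84.6% in haploid ESC and 86.1% in sperm. Second-pair shares were 17.4% and 17.8%. At the other shared sites these shares, in the same order, were 67.6%, 70.0%, 11.5% and 7.97%. Counts per cluster depend on such shares, and whether calls gathered in clusters beyond them was not tested.

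Neighbouring dense sites agreed on the first-pair call more often than other neighbouring sites. Of 1070 adjacent listed pairs of dense sites at most 500 bp apart, 76.7% had the same call in haploid ESC, against 60.9% of 421005 pairs of other sites. In sperm the values were 82.3% of 1027 pairs and 64.6%. The phi coefficient, which allows for the share of calls, was 0.08 for dense and 0.09 for other pairs in haploid ESC, and 0.10 and 0.13 in sperm. Calls of adjacent dense sites were thus only loosely tied within a table.

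The 5 clusters with the most dense sites were named by rule. Each was called for the first pair at most of its listed sites in both tables. Over all autosomal sites 66.8% were called in haploid ESC and 69.7% in sperm. Among the 5 clusters, calls ran from 7 of 10 sites in haploid ESC on chromosomes 6 and 19, near that share, to every listed site on chromosome 4. There were 3 clusters of 10 dense sites and 5 of 9, of which the 2 on chromosome 15 came first by chromosome. The first lay on chromosome 4 from 159444187 to 159444970 and held 10 dense sites in 784 bp. Haploid ESC listed 6 of them and sperm all 10, and every listed site was called for the first pair. Its adjusted p-values for haploid ESC in the authors' deposited table were 2.4e-14, 3.5e-20, 1.5e-13, 2.4e-21, 0.0083 and 2.5e-06. The 4 sites without an entry there, at 159444408, 159444492, 159444576 and 159444612, had 7.7e-07, 2.8e-28, 4.3e-15 and 1.8e-28 in the authors' deposited table for sperm. The missing sites thus lay in the interior of the cluster, between sites that haploid ESC listed. Second-pair calls were 2 in sperm, at 0.048 and 0.021 in the authors' deposited table, and 0 in haploid ESC, where the lowest value was 0.052.

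The cluster on chromosome 6 from 270499 to 271414 had 10 dense sites, all listed in haploid ESC and 8 in sperm. Its first 5 sites in order of position were called for the first pair in both tables. They had 2.8e-22, 0.0017, 8.1e-19, 0.001 and 1.8e-13 in the authors' deposited table for haploid ESC and 7.2e-24, 3.5e-15, 1.5e-20, 0.0015 and 6.3e-44 in that of sperm. Calls became mixed over the remaining 5. Haploid ESC called those at 271226 and 271414, with 3e-07 and 0.0004 in the authors' deposited table, where sperm had 0.053 and 0.076. Sperm called the site at 271100, with 1.8e-05 in the authors' deposited table, where haploid ESC had 0.13. The cluster also had 3 second-pair calls in haploid ESC, at 3.5e-05, 0.013 and 0.015 in the authors' deposited table, and 0 in sperm.

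The longest cluster, on chromosome 19 from 4760669 to 4761682, had all 10 dense sites in both tables. Sperm called each of them for the first pair, and haploid ESC called 7. The 3 not called in haploid ESC lay at 4760944, 4761057 and 4761359, with 0.061, 0.18 and 0.061 in the authors' deposited table. At those positions the authors' deposited table for sperm gave 0.0059, 5.4e-32 and 3.1e-34. The first 3 sites had adjusted p-values of 5e-25 or lower in the authors' deposited table for haploid ESC, and the 7 after them none below 4.2e-09. Its second-pair call in sperm was a single site, at 5.1e-11 in the authors' deposited table.

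Both other clusters lay on chromosome 15. From 7321346 to 7322073 there were 9 dense sites, 8 of them listed in haploid ESC and all called there, although the 2 sites at 7321595 and 7321599 reached only 0.048 and 0.044 in the authors' deposited table. Sperm called 8 of 9, with 3e-66 as the lowest value in the authors' deposited table and 0.066 at the uncalled 7321599. From 7640202 to 7640884 another 9 lay in 683 bp. Haploid ESC called 6 of 8 and sperm 8 of 9. The site at 7640479, without an entry in haploid ESC, had the lowest value of the cluster in the authors' deposited table for sperm, 9.7e-65. The other 3 clusters of 9 lay on chromosome 17 from 94472113 to 94472865 and on chromosome 20 from 86157163 to 86158089 and from 86449359 to 86450178. Of their shared dense sites haploid ESC called 5 of 8, 7 of 9 and 6 of 7 for the first pair, and sperm called 7 of 8, 8 of 9 and 7 of 7.

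**Figure D5:**
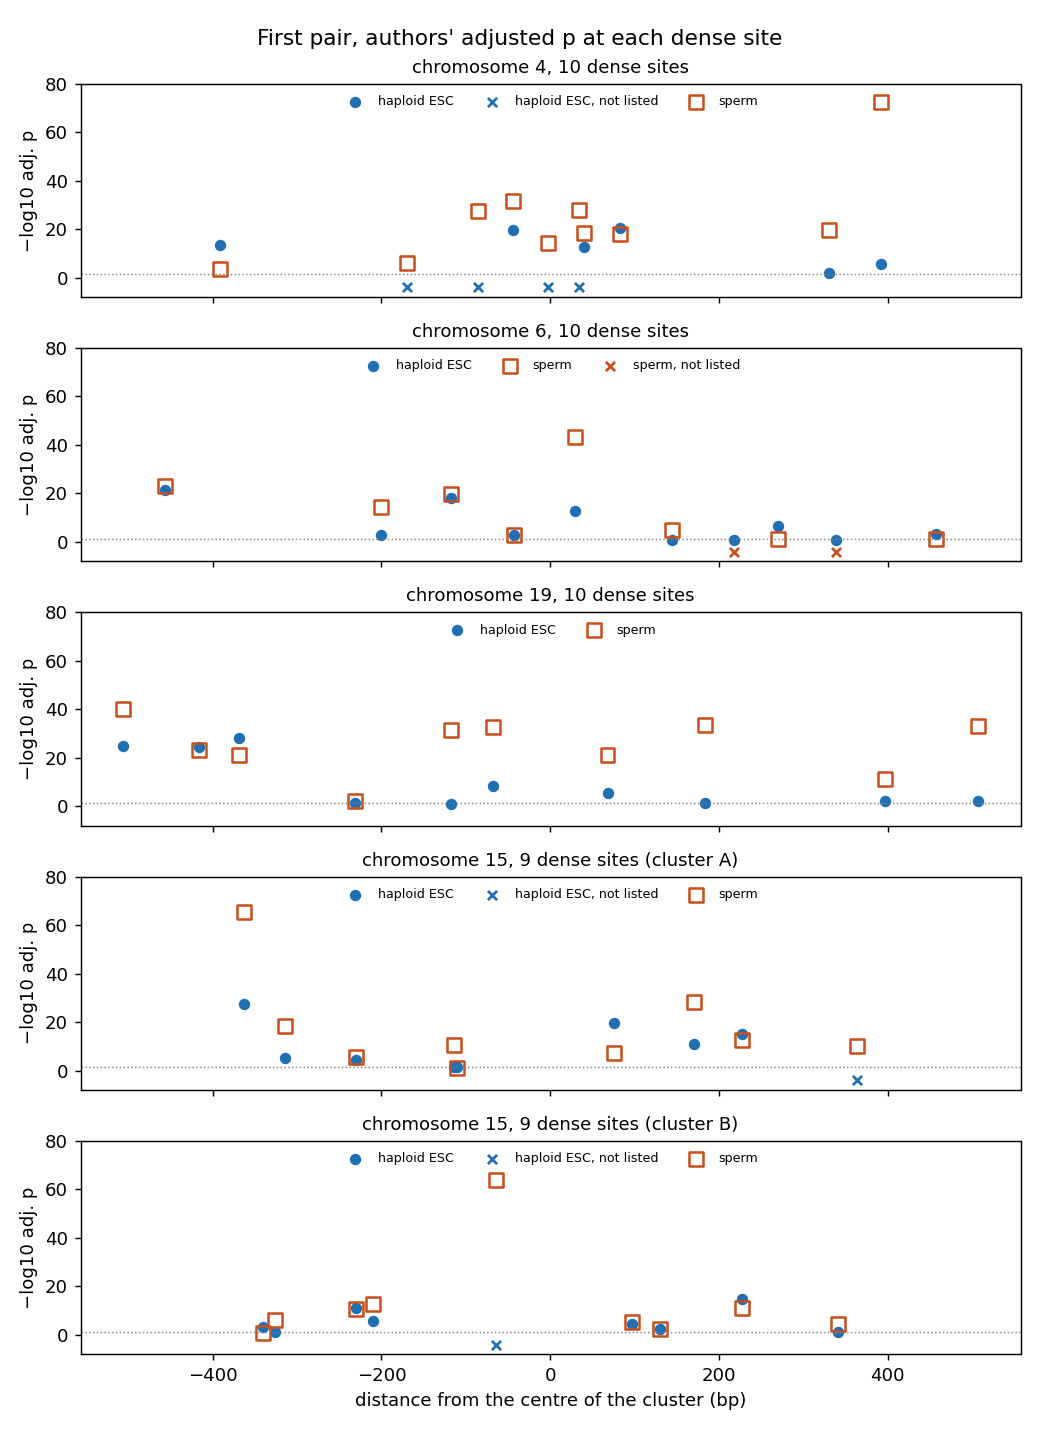
First-pair adjusted p of the authors' deposited tables (vertical axes, −log10) at each dense site of the 5 clusters with the most dense sites, by distance in bp from the cluster's centre (horizontal axis), in haploid ESC (filled circles) and sperm (open squares). Crosses mark sites not listed in a table and the dotted line marks 0.05; cluster A begins at 7321346 and cluster B at 7640202, and in the cluster on chromosome 4 the 4 sites without an entry in haploid ESC lie between listed ones.

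Clusters whose first-pair calls differed most between the tables were few, and most rested on 4 shared sites. Of the 170, 9 had a share of calls at least 50 points higher in sperm and 3 had one at least 50 points higher in haploid ESC. On chromosome 20 from 30237835 to 30238265, sperm called all 4 dense sites, with 6.7e-32, 8.7e-25, 1.8e-36 and 6.2e-30 in the authors' deposited table. Haploid ESC called 1 of the 4, with 0.11, 0.071, 0.038 and 0.054 in the authors' deposited table. This was the widest separation in adjusted p among the 12, with a highest value in sperm of 8.7e-25 and a lowest in haploid ESC of 0.038. On chromosome 16 from 244345 to 244822, 5 sites lay between 2.1e-23 and 8e-11 in the authors' deposited table for sperm, and 2 of them were called in haploid ESC. On chromosome 14 from 1832906 to 1833326 sperm called all 4 shared sites and haploid ESC 1 of those 4.

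In the opposite direction, the cluster on chromosome 1 from 18844414 to 18844826 had 4 shared sites, all called in haploid ESC. They had 1.6e-06, 3.2e-15, 7.1e-08 and 0.026 in the authors' deposited table for haploid ESC, and 3.7e-10, 0.17, 0.22 and 0.11 in that of sperm. On chromosome 6 from 179617841 to 179618302 haploid ESC called 4 of 4 sites, none below 2.7e-05 in the authors' deposited table, and sperm called 1. On chromosome 16 from 79069857 to 79070489 haploid ESC called 7 of 7 dense sites, and sperm listed 4 and called 1, at 1.1e-27 in the authors' deposited table. In each of the 3 clusters the shared site called in sperm was the first by position, and on chromosome 1 sperm also called a site without an entry in haploid ESC. These clusters were chosen after their values were seen, and a site called in a single table is not thereby shown to differ between the cell types.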

How the data were processed

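Genomic DNA of haploid ESC and sperm was profiled by HMST-Seq with 50 bp single-end reads, per the labels' protocols. Grouping by digest left 1 library per group. The authors deposited 1 table per cell type, with 10 columns and no header. They hold p-values and adjusted p-values of the authors, and the sources used here do not give the test, aligner, counting or filters behind them. The second pair's adjusted column, as deposited, was read as a score, since it reaches 1.03. Per the submitters' processing notes the build was hg19, a human one, which does not match chromosomes 1 to 20 and X of a macaque. Positions are therefore given as in the tables, with no gene, sequence or build. Total counts per sample are not known, so the depth of the libraries and the precision it gives are unknown.

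The 8 columns that look like values of single libraries (4 per table) carry no name that ties them to a digest. They had been looked at and were then left out, so the 4 planned comparisons of log2 ratios, the filter on low values and the planned choice of clusters by log2 ratio were not run. Neighbours were counted in the union of both tables with Python 3.11.15, pandas 2.3.3 and numpy 2.4.6, and checked on simulated data. Shares have 95% Wilson intervals, and differences of shares have intervals built from them. No p-value was computed here. The rule named the 5 clusters with the most dense sites. Members, lists and thresholds were chosen with earlier results of these data known.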

Additional observations from a re-analysis of the deposited data

Results flagged for a closer look

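The difference between dense and other sites in the share without an entry in the other table had opposite signs in the cell types. As dense minus other it was -0.743 percentage points among haploid ESC sites and 0.675 points among sperm sites. The contrast was not tested, since each digest had 1 library, and both counting intervals include 0. With neighbours counted among shared sites alone the haploid ESC value was -2.52 (-3.64 to -1.11), and the sperm value fell to 0.112 (-0.755 to 1.28). That count favours stretches listed in both tables, so a low share is partly built in by the choice of sites. Against sites with 4 or 5 neighbours alone both values were above 0, with intervals that include 0. They were 0.377 (-0.725 to 1.64) in haploid ESC and 0.547 (-0.262 to 1.54) in sperm. The lower share held on 13 of 20 autosomes and the higher share on 11 of 20. Of the 70 dense sites without an entry in haploid ESC, 10 lay in 3 clusters.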

How the results depend on the processing

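Values are differences between dense and other autosomal sites, in percentage points. Of 52 recomputed values 26 kept their sign within the counting interval of the value reported, 22 left it in the same direction and 4 changed sign. Among the sign changes, the value of 0.377 for haploid ESC sites without a sperm entry still lay within the interval reported, -1.80 to 0.490. With 4 or more neighbours the first-pair excess was 10.6 in haploid ESC and 11.4 in sperm. With 10 or more a single site remained, whose values say nothing of the class: 33.2 and 30.3 in the first pair, -11.1 and -7.86 in the second, and -7.75 and -3.11 for sites without an entry. A window of 250 bp left 20 dense sites in haploid ESC and 23 in sperm, with 13.2 and 30.3 in the first pair, 13.9 and 31.3 in the second, and -2.75 and 14.3 for sites without an entry. At an adjusted p below 0.001 the excess was 27.4 and 25.2 in the first pair, and 1.55 and 3.46 in the second. Counting neighbours among shared sites alone, which favours stretches listed in both tables, moved the haploid ESC sites without a sperm entry to -2.52. The sperm sites without a haploid ESC entry went to 0.112, within the interval of the value reported. Other alternatives were added after seeing the data. The first listed site per cluster gave 14.5 in the first pair and 6.15 in the second in sperm. Against sites with 4 or 5 neighbours alone the excess was 7.14 and 5.43 in the first pair. In the second it was 1.05 and 1.65, with intervals that include 0, and haploid ESC sites without a sperm entry turned to 0.377. Where a value moved by another comparison set or threshold the cause was not tested. The filter on low values and every alternative for log2 ratios were not run. No paired analysis was possible because each digest had 1 library and the labels give no replicate numbers.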

Other observations

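The X chromosome lies outside the rule used above. By the same density it had 20 dense sites (0.401 per 1000 of its sites) in 7 clusters, of which the one with the most held 7 sites, from 153401240 to 153402026. All 20 were listed in both tables and all 20 were called for the first pair in each, which allows a share of calls from 83.9% to 100% by the Wilson interval. The other X sites were called at 67.2% in haploid ESC and 63.5% in sperm. The values were looked at after those of the autosomes, and 7 clusters are too few to set them apart from the autosomal dense sites.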
